A study of Mus musculus with 4 samples.

Results

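The genes of mature, myelinating oligodendrocytes were followed in the hippocampus of mice after global cerebral ischemia (GCI), a transient arrest of blood flow to the brain. A list of 36 gene symbols was matched to the gene names of the count files. It found 35 genes among the 22609 in the files, because Tmem10 is an older symbol of Opalin, which is also on the list. All 35 passed the filter on low counts, alongside 14978 genes tested in all. The mice were C57BL/6 females without ovaries that carried estradiol (E2) mini pumps, underwent GCI and were sampled after 24 h of reperfusion. The control genotype was FLOXED, and the other was PELP1 FBKO, a forebrain knockout of Pelp1, the gene of an estrogen receptor co-regulator. Each genotype had 2 RNA-seq libraries, named here by genotype and replicate number, and the 4 libraries held between 17524594 and 22447658 reads assigned to genes. The driver of the recombinase, the animals' age and whether animals were pooled are not given in the sources used here. Every library came from ischemic, E2-treated tissue, so a difference that was there before either cannot be told apart from one that followed them.

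Oligodendrocytes wrap axons of the central nervous system in many turns of membrane, and the layers are held together by myelin proteins and by lipids rich in galactosylceramide. Compact myelin carries the basic proteins on the inner face of its membranes, while the inner and outer loops, the paranodes and the nodes carry their own sets of proteins. In the hippocampus, myelinated fibers lie mainly in the alveus, the fimbria and the deeper layers. In RNA from whole tissue, more oligodendrocytes in the sample and more myelin RNA in each oligodendrocyte cannot be told apart.

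The targeted gene and the identity of the tissue were examined first. Pelp1 stood at 26.7 and 26.3 CPM (FLOXED) against 18.0 and 17.3 CPM (PELP1 FBKO), where CPM (counts scaled to a fixed total of gene reads per library) were adjusted with the trimmed mean of M-values (TMM). That difference, -0.59 on the log2 scale (SE 0.149), had the sign of the labels and missed the threshold of 0.05 (adjusted p = 0.130, edgeR quasi-likelihood test). Myelin of the central type was plainly present: no listed gene was below 21 reads in a library. Of 7 Schwann cell genes that would mark peripheral myelin, 3 had too few reads to be tested, with Foxd3 at 0 reads in every library and Pmp2 at no more than 0.0461 CPM. The other 4 were positive in log2 fold change (median 0.521), and the list summed to 66.9 and 83.87 (FLOXED) against 83.92 and 81.74 CPM (PELP1 FBKO). The series text says that samples were run in duplicate and does not tie the duplicates to separate animals, so they may be technical, and the p-values measure the spread between these samples only.

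Before the expression values, promoters are shown for 4 of the genes: Padi2, which had the largest difference between genotypes, Mobp and Cnp, 2 myelin genes close to the median of the set, and Opalin, whose genotypes overlapped. Each is the 250 bases before the transcription start, from RefSeq on build GRCm38.p6, written 5′ to 3′ on the gene's strand. Capitals mark letters matching 3 motifs searched on both strands: those of SOX factors, such as the oligodendrocyte regulator SOX10 (ACAAAG or ACAATG), of the myelin regulatory factor MYRF (CTGGCAC or CTGGTAC), and an E-box that basic helix-loop-helix factors such as OLIG2 can bind (CAGCTG). No match of one motif overlapped another in the 4 windows.
Padi2, chr4:140906110-140906359, forward strand: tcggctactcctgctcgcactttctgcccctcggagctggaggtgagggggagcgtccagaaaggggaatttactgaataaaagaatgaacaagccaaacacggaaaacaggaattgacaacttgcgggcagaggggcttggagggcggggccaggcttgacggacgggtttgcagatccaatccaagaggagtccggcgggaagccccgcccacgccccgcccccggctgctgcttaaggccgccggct
Mobp, chr9:120149492-120149741, forward strand: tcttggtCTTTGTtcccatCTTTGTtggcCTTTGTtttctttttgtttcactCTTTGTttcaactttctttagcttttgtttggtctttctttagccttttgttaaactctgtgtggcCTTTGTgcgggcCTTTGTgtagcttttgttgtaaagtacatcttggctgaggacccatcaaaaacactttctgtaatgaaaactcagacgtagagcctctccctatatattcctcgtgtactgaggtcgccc
Cnp, chr11:100574689-100574938, forward strand: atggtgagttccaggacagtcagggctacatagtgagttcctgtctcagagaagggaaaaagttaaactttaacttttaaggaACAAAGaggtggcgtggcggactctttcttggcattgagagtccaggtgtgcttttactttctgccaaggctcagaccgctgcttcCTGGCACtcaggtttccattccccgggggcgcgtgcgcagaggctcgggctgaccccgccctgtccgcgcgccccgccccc
Opalin, chr19:41077114-41077363, reverse strand: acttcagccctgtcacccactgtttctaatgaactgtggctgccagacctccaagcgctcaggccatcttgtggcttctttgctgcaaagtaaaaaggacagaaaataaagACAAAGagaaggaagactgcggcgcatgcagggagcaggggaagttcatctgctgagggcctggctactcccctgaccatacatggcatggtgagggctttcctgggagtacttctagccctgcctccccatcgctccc

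The Mobp window held 6 SOX matches, each read as CTTTGT on the printed strand. Only 1 of 32851 RefSeq promoter windows of this length held 6 or more, and it was this one. The Cnp window had 1 SOX and 1 MYRF match, Opalin had 1 SOX match, and Padi2 had none of the 3 motifs. RefSeq windows were matched for 26 of the 35 genes, some with several starts, which gave 37 windows. A SOX match was found in 43.2% of these 37, against 25.2% of all 32851 windows. For MYRF the shares were 16.2% and 5.93%, and for the E-box 13.5% and 13.0%. Windows on the chromosome of Mbp were left out for the set but not for all windows, and windows of 1 gene can overlap and share a match, as in Mag. Counted by gene, SOX matches were found in 13 of 26, MYRF in 5 and the E-box in 4. Among 10555 tested genes with a window the shares were 20.7%, 7.07% and 15.0%. These are matches of letters, not binding sites, and no test was made of their share.

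Nearly the whole set was higher in PELP1 FBKO. The log2 fold change (PELP1 FBKO over FLOXED) was positive for 34 of 35 genes and its median was 0.788, while the median over all 14978 tested genes was 0.000155. In 32 genes both PELP1 FBKO libraries lay above both FLOXED libraries, as they did in 25.4% of all tested genes. By edgeR, 32 of the 35 genes were higher at an unadjusted p under 0.05 and 0 were lower, against 10.1% and 5.55% of all genes. None passed an adjusted p of 0.05, which 0% of all genes passed on the higher side, and 15 of the 35 were under 0.10, against 1.56% of all genes. DESeq2 called 22 of the 35 higher and 0 lower at 0.05, against 2.19% of all genes it called higher. The edgeR count at an adjusted p of 0.05 rested on single libraries. With 1 library left out, the lone library is assumed to vary like the other genotype, so only the effect size is given here. The median log2 fold change was 0.647 without FLOXED 1 and 0.959 without FLOXED 2. It was 0.85 without PELP1 FBKO 1 and 0.748 without PELP1 FBKO 2. The genes were listed with earlier results of these data known, so the counts describe the set and carry no test of it.

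The libraries also differed within each genotype. All 35 genes together took 0.406% of gene reads in FLOXED 1 (95% Wilson interval 0.4030 to 0.4090), 0.472% in FLOXED 2 (0.4693 to 0.4750), 0.694% in PELP1 FBKO 1 (0.6906 to 0.6975) and 0.841% in PELP1 FBKO 2 (0.8370 to 0.8450). These intervals cover counting error only. FLOXED 2 was above FLOXED 1 in 28 of 35 genes, with a median ratio of 1.30, whereas it was above in 7486 of the 14978 tested genes. PELP1 FBKO 2 was above PELP1 FBKO 1 in 28 of 35 as well, with a median ratio of 1.08. Between the libraries closest across genotypes, PELP1 FBKO 1 over FLOXED 2, the median log2 difference was 0.575, and between the farthest, PELP1 FBKO 2 over FLOXED 1, it was 1.00. The gap between the genotypes was wider than the larger gap within a genotype, on the log2 scale, in 20 of the 35 genes and in 9.89% of all genes. Without FLOXED 1, the lowest library, the median log2 fold change was 0.647 and without FLOXED 2 it was 0.959.

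**Figure D1:**
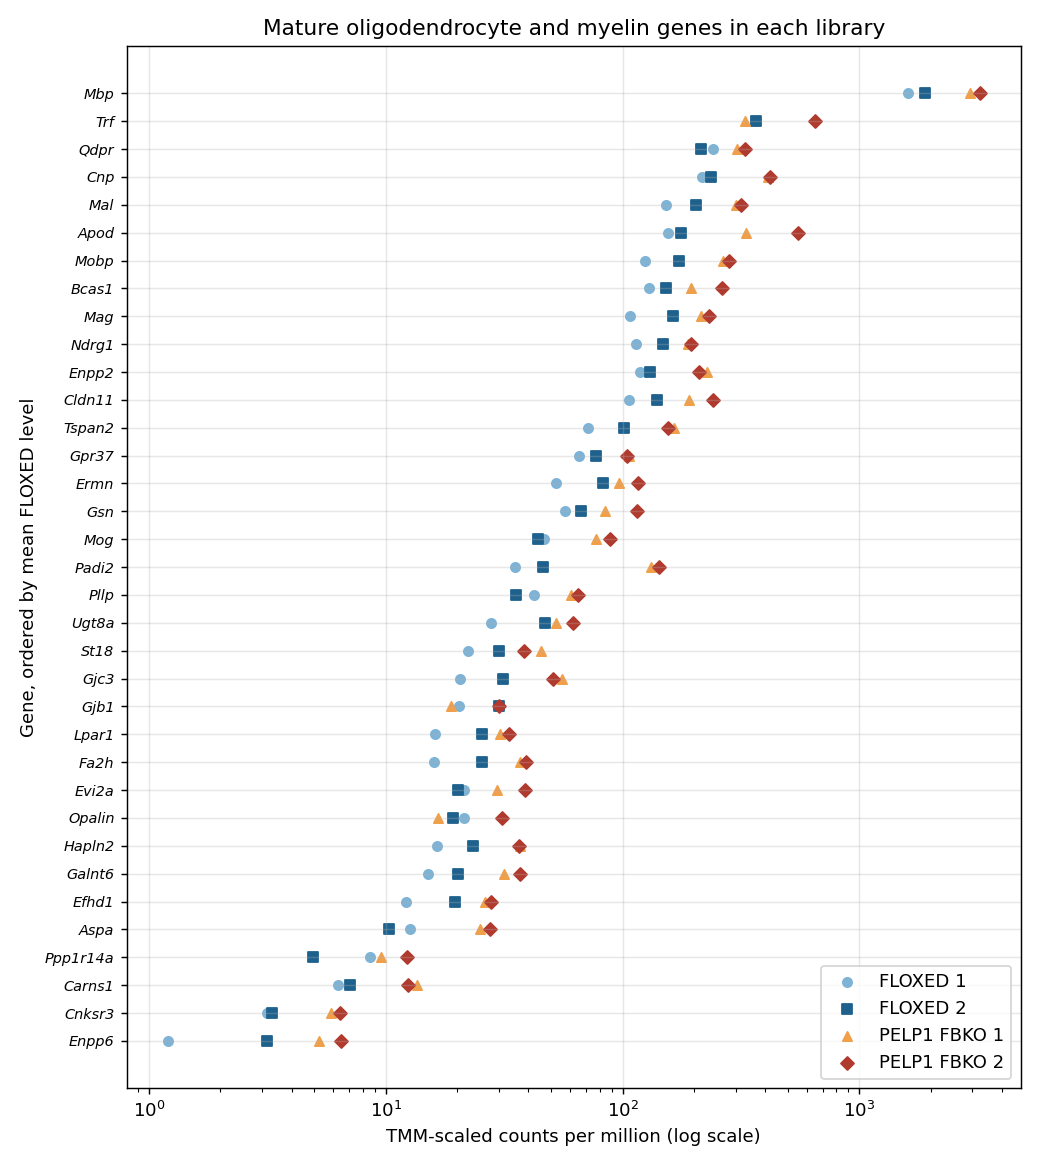
TMM-scaled CPM (log axis) of each of the 35 genes, 1 row per gene ordered by its mean in FLOXED, with 1 point per library (circles and squares FLOXED 1 and 2, triangles and diamonds PELP1 FBKO 1 and 2). Both PELP1 FBKO points lie to the right of both FLOXED points in 32 rows, and they do not in Trf, Gjb1 and Opalin.

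Structural proteins of the sheath were higher in PELP1 FBKO in 7 of 9 genes without overlap, and the same 7 were called by DESeq2. Mbp, which binds the cytoplasmic faces of compact myelin, was the most abundant gene of the set. FLOXED 1 and 2 held 1610 and 1890 CPM of it, PELP1 FBKO 1 and 2 held 2940 and 3230 CPM. The genotypes did not overlap, and the log2 fold change was 0.82 (SE 0.180, edgeR adjusted p = 0.0998). Mbp alone supplied 39.8% and 39.6% of the reads of the 35 genes in the FLOXED libraries and 41.6% and 39.4% in the knockout libraries, so its share of the set hardly moved while the set changed level. Mobp, another basic protein of compact myelin, stood at 125 and 173 (FLOXED) against 266 and 282 CPM (PELP1 FBKO). Its promoter is the one with the 6 SOX matches, and its log2 fold change of 0.88 (SE 0.175) was close to that of Mbp. Mal, a membrane protein of lipid rafts that takes part in sorting to myelin, stood at 153 and 204 against 302 and 315 CPM. The tight junction gene Cldn11 was at 107 and 140 against 190 and 241 CPM, and the tetraspanin gene Tspan2 at 71.2 and 101 against 165 and 155 CPM. Pllp, which encodes plasmolipin, a relative of MAL, stood at 42.1 and 35.6 CPM in FLOXED and 60.3 and 64.7 CPM in PELP1 FBKO. It was one of 7 genes of the set in which FLOXED 1 was above FLOXED 2.

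The 2 connexin genes of the set differed from each other. Gjc3 encodes connexin 29, which lies in the innermost myelin membrane along the axon, and stood at 20.5 and 31.2 (FLOXED) against 55.5 and 50.9 CPM (PELP1 FBKO). Its genotypes did not overlap (log2 fold change 1.04, SE 0.202, edgeR adjusted p = 0.0822). Gjb1 encodes connexin 32, which joins successive layers of the sheath, and stood at 20.4 and 30.0 (FLOXED) against 18.8 and 30.0 CPM (PELP1 FBKO). Each genotype had 1 low and 1 high library, and the log2 fold change was -0.05 (SE 0.261, edgeR adjusted p = 0.951). Opalin, a membrane protein of the paranodes and inner loop, was at 21.5 and 19.2 CPM in FLOXED, 16.6 CPM in PELP1 FBKO 1 and 31.0 CPM in PELP1 FBKO 2. The FLOXED libraries lay between those of PELP1 FBKO, and the log2 fold change was 0.23 (SE 0.271, edgeR adjusted p = 0.736). Without PELP1 FBKO 2 the Opalin value was -0.287. The difference between genes within the set was not itself tested.

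Proteins of the sheath's surface, its axonal side and the node were higher in all 5 genes, with log2 fold changes between 0.65 and 0.87, and DESeq2 called 4. Mog, the glycoprotein of the outermost myelin surface, was at 46.4 and 44.1 (FLOXED) against 77.0 and 88.7 CPM (PELP1 FBKO). It was among the most even within FLOXED, and its log2 fold change was 0.87 (SE 0.135, edgeR adjusted p = 0.0627). Mag, the glycoprotein that faces the axon, was at 108 and 164 against 215 and 231 CPM, so that FLOXED 2 stood 1.52 times above FLOXED 1. Hapln2, a link protein of the matrix at nodes of Ranvier, was at 16.5 and 23.4 against 37.0 and 36.4 CPM. The cytoskeletal gene Ermn was at 52.4 and 82.9 against 96.6 and 116 CPM, and Evi2a at 21.3 and 20.2 against 29.4 and 38.7 CPM. Ermn shares 237 of its 3635 exonic bases with Galnt5 on the opposite strand, but Galnt5 did not exceed 0.228 CPM in any library.

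**Figure D2:**
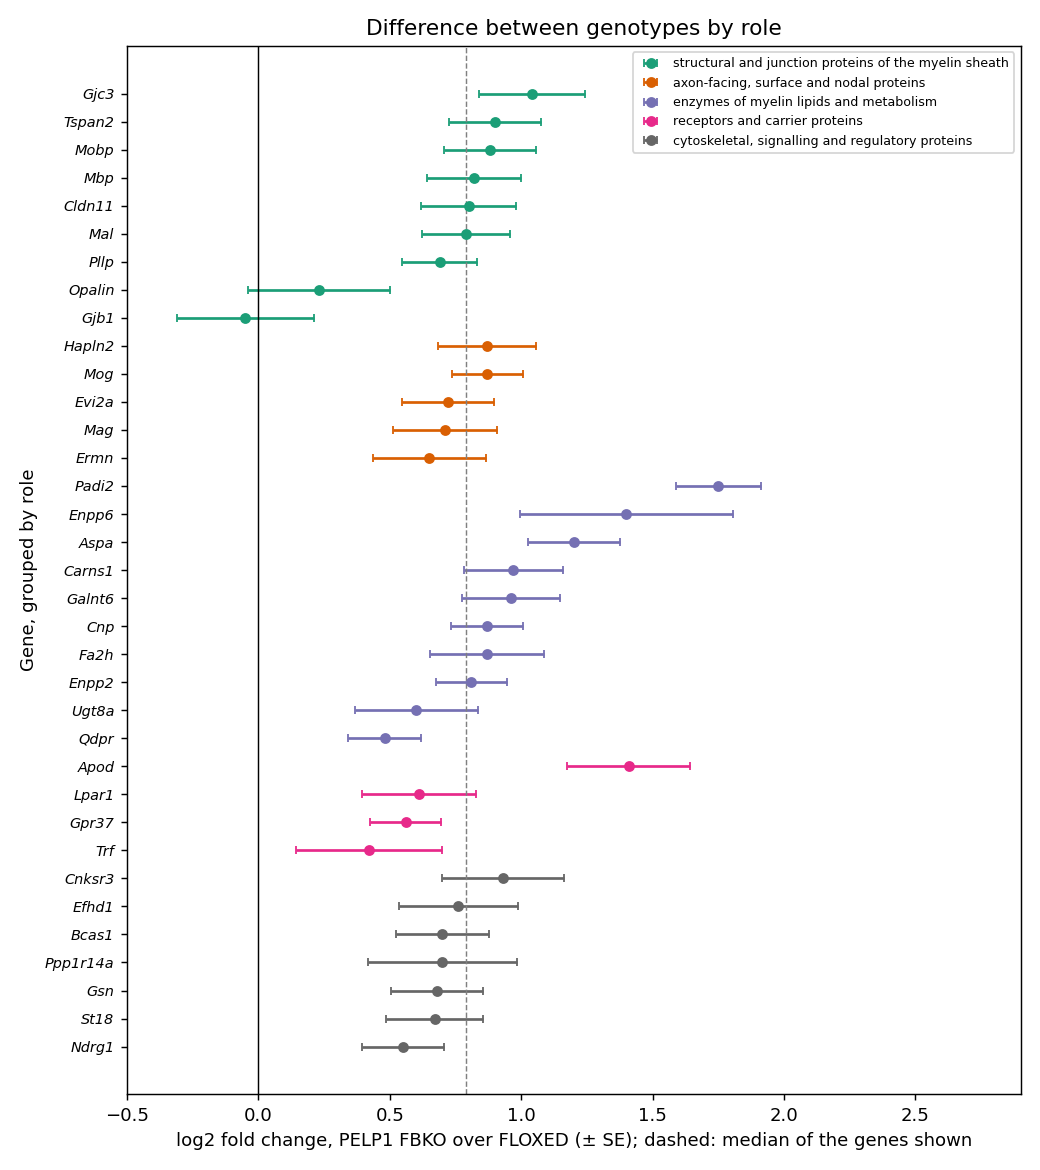
Log2 fold change of PELP1 FBKO over FLOXED for each of the 35 genes with its standard error (bars), grouped by role, with the median of the genes shown as a dashed line. Most genes lie between 0.5 and 1.1, Padi2 is highest at 1.75, and Gjb1 at -0.05 is the only one below 0.

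Enzymes had the highest median log2 fold change of the 5 role groups, 0.915, with no overlap between genotypes in 10 of 10 genes, 7 of them called by DESeq2. Padi2 converts arginine to citrulline in proteins, among them myelin basic protein. FLOXED 1 and 2 held 35.1 and 46.3 CPM of it, from 616 and 1003 reads, and PELP1 FBKO 1 and 2 held 132 and 142 CPM, from 2921 and 2904 reads. The gap between genotypes was far wider than either gap within one, a fold of 3.37 (3.01 to 3.77 at 1 SE), yet the adjusted p was 0.0501 by edgeR's quasi-likelihood test. Over 12 alternatives Padi2's log2 fold change lay between 1.57 and 1.95 and its adjusted p between 1.91e-17 and 0.178, the highest without FLOXED 1. Aspa releases acetate from N-acetylaspartate for lipid synthesis and was at 12.7 and 10.3 against 25.1 and 27.6 CPM (log2 fold change 1.20, SE 0.175, edgeR adjusted p = 0.0567).

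The other enzymes, among them those of myelin lipids, had fold changes below that of Padi2. Cnp, the cyclic nucleotide phosphodiesterase of uncompacted myelin, was at 217 and 237 (FLOXED) against 412 and 419 CPM (PELP1 FBKO), with the libraries of each genotype close together. Cnp shares 154 of its 3639 exonic bases with Dnajc7 on the opposite strand, which ran from 208 to 256 CPM and was not higher in PELP1 FBKO. Fa2h, which adds the hydroxyl group of hydroxylated galactolipids, was at 16.0 and 25.5 against 36.8 and 39.3 CPM. Ugt8a, which makes galactosylceramide, was at 27.9 and 47.2 (FLOXED) against 52.3 and 61.8 CPM (PELP1 FBKO). In Ugt8a the gap from FLOXED 2 to PELP1 FBKO 1 was small beside the gap within FLOXED (log2 fold change 0.60, SE 0.234), and without FLOXED 1 its log2 fold change was 0.27. Enpp2, or autotaxin, which makes lysophosphatidic acid, was at 118 and 131 against 227 and 210 CPM. Its relative Enpp6, a choline phosphodiesterase of oligodendrocytes that are just forming, was the rarest gene of the set, at 1.20 and 3.14 against 5.21 and 6.47 CPM from 21, 68, 115 and 132 reads. Its log2 fold change of 1.40 had the largest error (SE 0.405, edgeR adjusted p = 0.163). The carnosine synthase gene Carns1 was at 6.27 and 7.06 against 13.6 and 12.4 CPM, and Galnt6, which starts mucin-type O-glycans, at 15.1 and 20.2 against 31.7 and 37.0 CPM. Qdpr, which regenerates tetrahydrobiopterin, was at 242 and 214 against 304 and 330 CPM, with the smallest difference of the group (0.48, SE 0.140).

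All 4 receptors and carriers had a positive log2 fold change, and the genotypes overlapped in 1 of them, Trf. Apod, the lipid carrier apolipoprotein D, was at 156 and 177 CPM in FLOXED, 332 CPM in PELP1 FBKO 1 and 552 CPM in PELP1 FBKO 2. Its log2 fold change was 1.41 (SE 0.234, edgeR adjusted p = 0.0685), and 1.00 without PELP1 FBKO 2. Trf, the iron carrier transferrin, was at 364 and 367 CPM in FLOXED, 329 CPM in PELP1 FBKO 1 and 650 CPM in PELP1 FBKO 2. PELP1 FBKO 2 alone stood out, the genotypes overlapped (log2 fold change 0.42, SE 0.279, edgeR adjusted p = 0.508), and without PELP1 FBKO 2 the value was -0.15. Gpr37, an orphan-type receptor of oligodendrocytes, was at 65.2 and 77.2 against 106 and 104 CPM, and Lpar1, a receptor for the product of Enpp2, at 16.2 and 25.4 against 30.5 and 33.0 CPM.

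Apod, Trf, Gsn and Enpp2 are also made by cells of the meninges, vessels or choroid plexus, so markers of these cells are given beside them. Of 9 tested meningeal and fibroblast genes 8 were positive (median 0.732), with summed levels of 143.6 and 178.2 CPM in FLOXED and 197.8 and 284.6 CPM in PELP1 FBKO. Slc47a1, also on that list, had too few reads to be tested, and Dcn, the most abundant of them in FLOXED, was at 69.2 and 72.6 against 57.0 and 83.8 CPM. The list's 3 smallest p-values belonged to genes that were higher in PELP1 FBKO: Ogn, at 6.96 and 6.60 against 16.2 and 14.4 CPM, Igf2, at 35.9 and 55.2 against 74.0 and 111 CPM, and Islr, with a log2 fold change of 0.73 (SE 0.195). DESeq2 called Ogn and Igf2. Of 10 tested choroid plexus and ependymal genes 7 were positive and 3 negative (median 0.732), and the summed level of that list was 368.1 and 118.2 CPM in FLOXED and 85.01 and 123.8 CPM in PELP1 FBKO. Transthyretin (Ttr), which defines the choroid plexus, made up most of it in both FLOXED libraries but not in PELP1 FBKO, at 324 and 67.5 against 21.4 and 33.9 CPM. The other tested plexus genes did not share this difference. Folr1 and Clic6 had positive log2 fold changes (0.69 and 0.53), Kl and Aqp1 negative ones (-0.08 and -0.38), and the genotypes overlapped in each. Kcne2 and Otx2 had too few reads to be tested. Kcne2 was highest in FLOXED 1, as Ttr was, at 1.71 and 0.231 against 0.0907 and 0.343 CPM. Otx2 was at 0.399 and 0.461 against 0.408 and 2.25 CPM. The ependymal gene Foxj1 was at 6.05 and 10.3 against 16.2 and 28.8 CPM. Their part in the values of Apod, Trf, Gsn and Enpp2 was not tested.

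Cytoskeletal, signalling and regulatory genes were higher without overlap in 7 of 7, by log2 fold changes between 0.55 and 0.93, but DESeq2 called 2 and in 1 the gap between genotypes exceeded that within them. Bcas1, a gene of early myelinating oligodendrocytes, was at 129 and 152 (FLOXED) against 194 and 262 CPM (PELP1 FBKO). Gsn, the actin-severing protein gelsolin, was at 57.4 and 67.0 against 84.2 and 115 CPM, and Ndrg1, mutated in a demyelinating neuropathy of peripheral nerve, at 114 and 148 against 189 and 194 CPM. Cnksr3, a signalling scaffold, was at 3.14 and 3.32 against 5.89 and 6.42 CPM, the most even pairs of the group. The zinc finger gene St18 was at 22.2 and 30.1 against 45.1 and 38.4 CPM, and the mitochondrial calcium-binding gene Efhd1 at 12.2 and 19.7 against 26.3 and 27.7 CPM. Ppp1r14a, an inhibitor of myosin phosphatase, was at 8.61 and 4.94 against 9.57 and 12.3 CPM, with FLOXED 1 nearly level with PELP1 FBKO 1.

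Levels of different genes can be compared only per length, so CPM was divided by the longest protein-coding transcript of each gene in GENCODE vM21. Mbp was highest, at 365 ± 41.3 CPM per kilobase (SD, n = 2) in FLOXED and 643 ± 42.3 in PELP1 FBKO. In FLOXED it was followed by Qdpr (165 ± 14.4 CPM per kilobase), Trf (142 ± 0.907), Cnp (96.4 ± 6.17) and Apod (80.3 ± 7.02). Below them, Cldn11 (66.1 ± 12.3), Mal (64.3 ± 12.9) and Mag (56.0 ± 16.3) lay within each other's spread. In PELP1 FBKO the order after Mbp was Qdpr (230 ± 13.0), Apod (213 ± 75.0), Trf (190 ± 88.2) and Cnp (176 ± 2.10), neighbours that did not differ beyond their spread. The rarest per length were Enpp6 and Cnksr3, at 0.436 ± 0.276 and 0.937 ± 0.0380 in FLOXED.

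Relative to one another, most of the genes kept their proportions across the 4 libraries. Each gene's log2 level was centred on its mean over the libraries, and the median of the 35 genes in that library was taken away. That median was -0.539 and -0.214 for FLOXED 1 and 2, and 0.330 and 0.474 for PELP1 FBKO 1 and 2. After it was removed, 27 of the 35 genes varied by under 0.6 on the log2 scale over the 4 libraries, Mbp least, by 0.09. The other 8 departed in several ways. Padi2 lay under the set median in both FLOXED libraries (-0.53 and -0.47) and above it in both PELP1 FBKO libraries (0.50 and 0.45). Opalin (-0.69), Gjb1 (-0.69) and Trf (-0.65) were farthest below the set in PELP1 FBKO 1. Apod (0.57) was farthest above it in PELP1 FBKO 2, Enpp6 (-0.68) farthest below in FLOXED 1, Aspa (-0.51) in FLOXED 2, and Ppp1r14a went from 0.57 in FLOXED 1 to -0.50 in FLOXED 2. These departures are descriptions, with no test. The same range was not counted for genes outside the set, so the count does not set these genes apart from others.

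**Figure D3:**
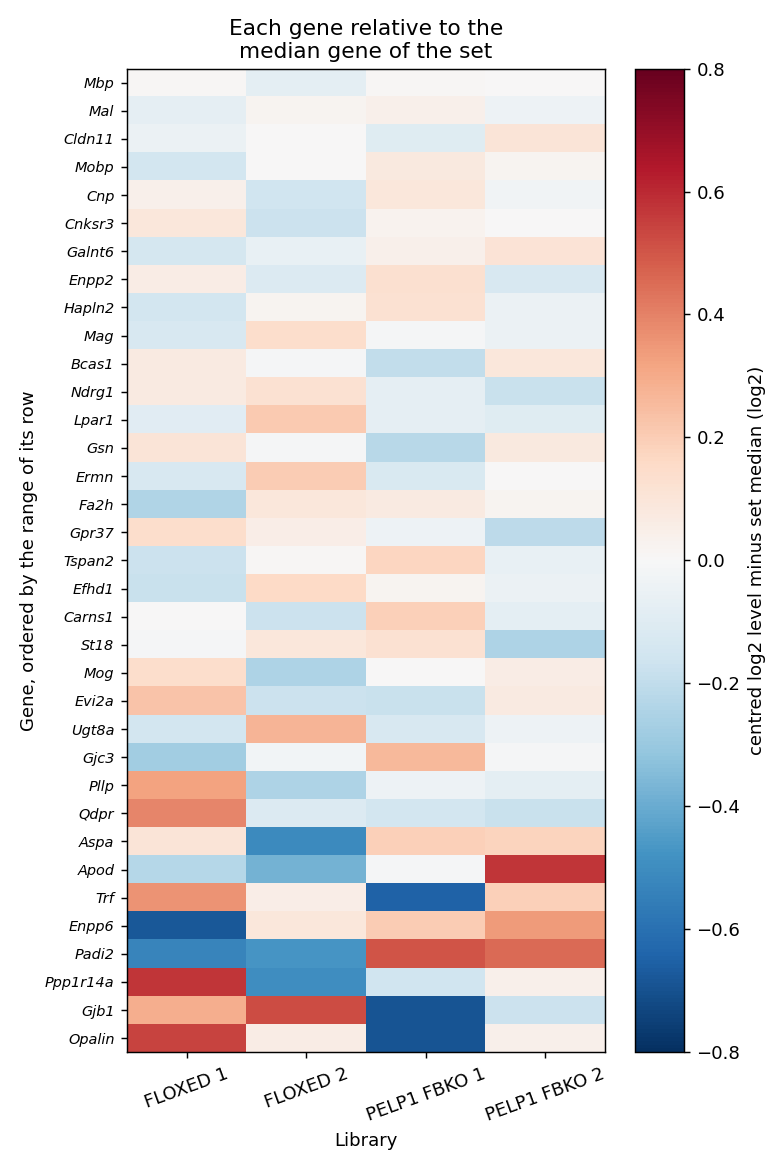
Colour gives each gene's centred log2 level minus the median of the 35 genes in the same library (red above, blue below), with 1 column per library and genes ordered by the range of their row. The upper rows are pale, Mbp ranging over 0.09, while Padi2 is blue in both FLOXED and red in both PELP1 FBKO libraries and Opalin, Gjb1 and Trf are darkest blue in PELP1 FBKO 1.

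Other genes of myelin and mature oligodendrocytes were mostly higher in PELP1 FBKO too, with a lower median. Of 36 further genes listed, 35 were tested and 34 were positive in log2 fold change (median 0.611). By edgeR, 23 had an unadjusted p under 0.05 among the higher genes and 0 among the lower, 5 were under an adjusted p of 0.10, and DESeq2 called 11 higher. The smallest p-values belonged to Arsg, a lysosomal sulfatase, at 13.3 and 15.4 against 30.2 and 31.2 CPM, to the sphingosine phosphate receptor gene S1pr5, at 12.1 and 14.1 against 25.2 and 26.6 CPM, and to Plekhb1, at 239 and 264 against 415 and 450 CPM. The genotypes overlapped in 6 genes, and 3 of these, chosen after their values were seen, had PELP1 FBKO 1 as the lowest library, as in Trf, Opalin and Gjb1. These were the tetraspanin gene Cd9, at 101 and 108 against 88.4 and 183 CPM, the protease gene Klk6, at 3.76 and 5.77 against 1.13 and 18.3 CPM, and the fatty acid elongase gene Elovl1, at 15.1 and 16.2 against 14.7 and 22.2 CPM.

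Lists of regulators and of earlier stages of the lineage had lower medians. Of 14 tested transcription factors linked to oligodendrocytes, 12 were positive in log2 fold change (median 0.488), and DESeq2 called 3 higher. Myelin regulatory factor, listed in the files under its older symbol Gm98, was at 38.4 and 62.5 (FLOXED) against 92.9 and 87.3 CPM (PELP1 FBKO) (log2 fold change 0.83, SE 0.213, edgeR adjusted p = 0.133). Sox10 was at 38.6 and 43.5 against 60.2 and 58.9 CPM, and Nkx6-2 at 9.41 and 9.87 against 16.3 and 19.0 CPM. Olig2, which is present from precursor to mature cell, was at 33.5 and 34.0 against 33.0 and 36.9 CPM (log2 fold change 0.05, SE 0.141, edgeR adjusted p = 0.901). Id4, an inhibitor of differentiation that astrocytes also express, was at 16.7 and 22.0 against 57.4 and 58.6 CPM. Of 16 genes of precursors and newly formed cells, 15 were positive, with a median of 0.334, 6 higher at an unadjusted p under 0.05 and 1 called by DESeq2. The precursor receptor gene Pdgfra was at 44.9 and 59.6 against 67.9 and 58.4 CPM, so the genotypes overlapped. The medians of these lists were not tested against each other.

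On the axonal side, genes of the node and paranode that neurons express mostly overlapped between genotypes. Of 10 tested, 9 were positive, with a median log2 fold change of 0.157, against 0.000155 over all tested genes. The genotypes overlapped in 8, as they did in 7733 of all 14978 tested genes. The median log2 difference was 0.515 for PELP1 FBKO 1 over FLOXED 1 but -0.152 for PELP1 FBKO 2 over FLOXED 2. None passed, with 0 at an unadjusted p under 0.05 and 0 called by DESeq2. Cntnap1, the axonal partner at the paranode, was at 152 and 196 against 260 and 179 CPM. Of 19 tested receptors and ligands that act on oligodendrocytes, 14 were positive and 5 negative. Fgfr2, a growth factor receptor of the lineage, was at 35.2 and 43.6 against 64.9 and 65.6 CPM, and Ntrk2, at 358 and 467 against 668 and 661 CPM, is also a receptor of neurons and astrocytes. Lif, a cytokine that supports oligodendrocytes, was at 16.2 and 25.1 (FLOXED) against 1.81 and 7.79 CPM (PELP1 FBKO) (log2 fold change -2.12, SE 0.533, edgeR adjusted p = 0.128).

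Markers of other cells also differed between the libraries. The log2 fold change was positive for all 16 astrocyte genes (median 0.557), with summed levels of 7262 and 7953 CPM in FLOXED and 9409 and 11250 CPM in PELP1 FBKO. Gja1, the main astrocyte connexin, was at 137 and 171 against 338 and 338 CPM. In 13 astrocyte genes the genotypes did not overlap, and in 3 they did, Gfap, Aqp4 and Aldh1l1. Gfap was at 2380 and 2260 against 1500 and 3880 CPM, and Aqp4 at 183 and 285 against 194 and 312 CPM. All 15 endothelial and pericyte genes were positive as well (median 0.442), with sums of 368.0 and 465.0 against 586.4 and 582.8 CPM. Of 14 microglia genes 13 were positive (median 0.308), with sums of 905.1 and 800.1 against 968.8 and 1374 CPM. Of 15 neuron genes 8 were positive and 7 negative (median 0.00881), with sums of 14100 and 14630 against 16230 and 13280 CPM, and Rbfox3 was at 270 and 303 against 255 and 210 CPM. The neuron genes called by DESeq2 were those of the inhibitory transmitter enzyme, Gad1, at 341 and 341 against 476 and 501 CPM, and Gad2, at 158 and 187 against 251 and 286 CPM. Of 9 tested genes of the thalamus and habenula, which adjoin the hippocampus, 8 were positive (median 0.284), with sums of 137.8 and 132.5 against 155.1 and 206.2 CPM. The genotypes overlapped in 4 of these 9. The smallest p-values of that list belonged to Calb2, at 62.4 and 41.8 against 70.0 and 108 CPM and called by DESeq2, Lef1 and Prkcd. Lef1 was at 1.6 and 2.12 against 3.17 and 3.38 CPM, and Prkcd at 25.5 and 20.4 against 26.8 and 41.7 CPM. The negative gene was Slc17a6, at 13.5 and 35.3 against 14.0 and 17.1 CPM, and Gbx2 was at or near 0. No defining marker of astrocytes, microglia, vessels or neurons was at 0. What these cells or the dissection contributed to the myelin gene values was not tested. Reads that aligned to several places, which were not counted, made up 47.7% and 40.4% of all entries tallied for FLOXED 1 and 2 and 38.5% and 41.5% for PELP1 FBKO 1 and 2, the highest in the library with the lowest myelin gene level, and their part was not tested either.

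**Figure D4:**
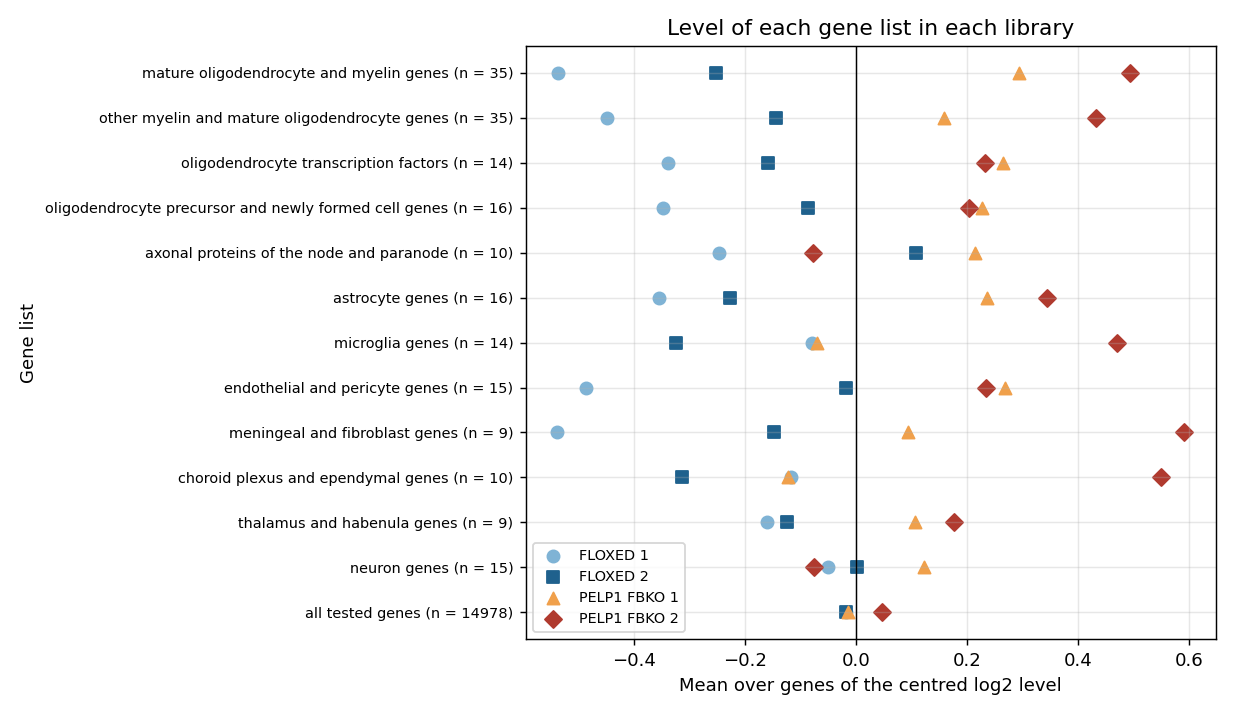
Mean over the tested genes of each list of the log2 level, centred for each gene over the 4 libraries, with 1 point per library. The 35 mature oligodendrocyte and myelin genes run from -0.535 in FLOXED 1 to 0.493 in PELP1 FBKO 2, the axonal and neuron lists have their genotypes interleaved, and the mean over all tested genes stays between -0.0172 and 0.0479.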

How the data were processed

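RNA from mouse hippocampus was sequenced as single reads. The authors deposited raw read counts per gene symbol, without normalization: the values are whole and their totals differ between libraries. CASAVA 1.8.2, TopHat2 2.0.8b, HTSeq and build mm9 are named in the submitters' processing notes, although the series text names a human build; the strand and overlap settings of HTSeq and its gene models are not given in the sources used here. All 5 tally rows of HTSeq were left out of every total and fit; reads in no gene made up 14.7% to 15.7% of uniquely aligned reads.

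Genotypes came from the labels. Replicates of a genotype differed by more than sampling noise (chi-square per degree of freedom 23.3 and 17.4 over genes with at least 10 reads). Each library was treated as a sample, although this spread does not show that the replicates are separate animals. The fit over all genes was edgeR 4.0.16 in R 4.3.3: TMM, filterByExpr, quasi-likelihood F test of genotype, Benjamini-Hochberg adjustment, threshold 0.05. SE came from the F statistic. The gap measures used log2(CPM + 0.5). The script recovered the median size of known changes on data simulated from this fit, which does not check the calls at the threshold. Alternatives were DESeq2 1.42.0, limma-voom (limma 3.58.1), other size factors and filters, a replicate block and leaving out each library; a block with crossed replicate numbers was added after seeing the data. The genes, lists and tests were chosen with earlier results of these data known. The text names all listed genes, Pelp1, and of the other lists mainly the genes with the smallest p, up to 3 a list, and defining markers. Promoter and transcript tables belong to a newer build than the counts; promoters were matched by symbol, and no counts were tied to coordinates. Values of some genes of these lists are not reported here.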

Additional observations from a re-analysis of the deposited data

How the results depend on the processing

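The median log2 fold change of the 35 genes, 0.788, kept its sign under all 12 alternatives, from 0.647 to 0.959. The spread between libraries within genotypes (0.173) comes from the same 4 libraries. It therefore cannot judge the shifts from leaving a library out. The number at an unadjusted p under 0.05 on the higher side, 32, ran from 28 to 34, with 0 lower throughout. Calls at an adjusted p of 0.05 depended on the method. Against 0 of the 35 and 0 higher and 0 lower of all genes by edgeR, DESeq2 called 22, 319 and 130. DESeq2 size factors in edgeR gave 1, 13 and 4, library totals alone 1, 20 and 3, no filter on low counts 17, 278 and 81, at least 50 reads in every library 3, 39 and 4, and limma-voom 0, 0 and 0. The replicate block gave 22, 387 and 179. Over all tested genes the deviations of same-numbered libraries correlated weakly and negatively (-0.143), although number 2 was above number 1 in 28 of the 35 genes in both genotypes. The numbers were not taken as pairs, and a block with the numbers crossed gave 15, 223 and 91. Leaving out 1 library gave 0 to 23 of the 35 higher, and 0 to 457 higher and 0 to 324 lower of all genes, 0 of each only without FLOXED 1. The direction turned for Opalin (-0.287) and Trf (-0.15) without PELP1 FBKO 2, and for Gjb1 without FLOXED 2 (0.248) and without PELP1 FBKO 1 (0.231). Without PELP1 FBKO 1, Trf (0.811) passed the threshold and Opalin was at 0.587, and Gjb1 was at -0.422 without PELP1 FBKO 2. The cause of these changes was not tested. Counting error weighed most on the rarest genes, Enpp6 (21 reads in FLOXED 1) and Cnksr3 (55 reads), and Enpp6 was lost under the filter of 50 reads.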
